A study of Mus musculus with 15 samples.

Results

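Genes for the subunits of oxidative phosphorylation (OXPHOS) were followed through palate development in bulk RNA sequencing of wild-type mouse secondary palate. The members were all protein-coding genes whose GENCODE symbol starts with mt-, or is Nduf followed by a, b, c, s or v and a number, Sdha to Sdhd, or starts with Uqcr, Cox4 to Cox8 or Atp5. This rule, which uses names and no measured value, found 97 gene identifiers among the 54232 in the count table (21983 of them protein-coding). The mitochondrial genome encodes 13 of them and the nuclear genome 84. The series set out to chart gene expression in the forming palate. Its 15 libraries are all wild type (WT), with 3 libraries at each of 5 stages, namely E13.5, E14.5, E15.5 and E16.5 (embryonic days) and P0 (day of birth). Each library was made from dissected palatal tissue pooled from 3 embryos, so every value averages over several animals and all cell types of the tissue. Whether pools of a stage shared litters is not given in the sources used here, and the p-values measure the spread between pools.

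Oxidative phosphorylation makes ATP in the inner mitochondrial membrane. Complex I (NADH dehydrogenase, the mt-Nd genes and the Nduf genes except Ndufa4) and complex II (succinate dehydrogenase, Sdh) pass electrons to ubiquinone. Complex III (cytochrome bc1, Uqcr and mt-Cytb) passes them to cytochrome c, and complex IV (cytochrome c oxidase, Cox, mt-Co and here Ndufa4) to oxygen. Complexes I, III and IV pump protons, and complex V (ATP synthase, Atp5 and mt-Atp) uses the gradient to make ATP. Complex II is wholly nuclear-encoded, whereas the others combine subunits of both genomes. Several complex IV subunits exist as a broadly expressed isoform and a heart and skeletal muscle isoform, and brown fat, a heat-producing tissue rich in mitochondria, also uses some of the latter. NRF1, GABPA (an ETS factor), the oestrogen-related receptors (ERR) and the coactivator PGC-1alpha (Ppargc1a) are known regulators of the nuclear set.

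Promoters were inspected because most nuclear-encoded members moved together. RefSeq promoter windows (build GRCm38.p6, 250 bases before to 50 bases after the gene start) were found for 66 of 83 nuclear-encoded symbols, with 71 windows in all. The NRF1 motif, written as GCGCA, any base, GCGC and searched on both strands, stood in the windows of 25.8% of these 66 genes, against 5.19% of 27025 genes of the count table with a window and 9.23% of 13133 tested protein-coding genes with one. The YY1 letters AANATGGCG stood in 15.2% of members and 4.68% of the tested protein-coding genes. For the ETS letters CCGGAAGT the shares were 7.58% and 7.20%, and for the ERR letters TCAAGGTCA 3.03% (2 genes) and 0.312%. The shares of the muscle motifs were lower in the member windows than in those of the tested genes. CAGCTG, an E-box bound by MyoD, was in 9.09% against 18.8%, and the MEF2 motif (CTA, 4 bases of any kind, TAG) in 1.52% against 3.74%. These are matches of letters in a fixed window, with no test. The 150 bases before the start are shown, 5′ to 3′ on the gene's strand, with matched letters in capitals. Starts are those of RefSeq, and for Ndufa5 and Cox7a1 they lie inside the gene positions given below. Ndufa5 and Cox6a1 hold the NRF1 letters 26 and 117 bases before the start, and Uqcr11 the ETS letters 66 bases before it. Ndufa5 has 2 windows, and the same NRF1 letters stand 190 bases before its other start, whose window is not shown. Cox8b holds an E-box 19 bases before the start. Cox7a1 has none of the searched motifs in its window. Cox8b and Cox7a1 are the muscle isoforms with the largest changes between E13.5 and P0, and Uqcr11 and Ndufa5 are members of complexes III and I. Cox6a2 has no entry.
Ndufa5, chr6:24527691-24527840, minus strand: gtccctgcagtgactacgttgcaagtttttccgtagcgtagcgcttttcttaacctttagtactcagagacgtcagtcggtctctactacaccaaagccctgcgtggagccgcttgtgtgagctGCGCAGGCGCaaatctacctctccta
Cox6a1, chr5:115348959-115349108, minus strand: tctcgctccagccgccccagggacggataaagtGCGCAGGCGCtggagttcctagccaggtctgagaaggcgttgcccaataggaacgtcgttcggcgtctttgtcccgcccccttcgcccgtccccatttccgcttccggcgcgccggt
Uqcr11, chr10:80406822-80406971, minus strand: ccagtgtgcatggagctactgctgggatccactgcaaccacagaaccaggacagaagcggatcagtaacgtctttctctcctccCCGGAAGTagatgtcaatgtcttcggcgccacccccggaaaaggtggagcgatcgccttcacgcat
Cox8b, chr7:140900447-140900596, minus strand: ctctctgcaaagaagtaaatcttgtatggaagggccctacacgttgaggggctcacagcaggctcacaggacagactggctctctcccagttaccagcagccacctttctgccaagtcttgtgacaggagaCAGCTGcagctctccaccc
Cox7a1, chr7:30184021-30184170, plus strand: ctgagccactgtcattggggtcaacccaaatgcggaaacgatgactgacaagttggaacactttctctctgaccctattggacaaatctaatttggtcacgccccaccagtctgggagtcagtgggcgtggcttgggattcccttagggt

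The libraries differed in ways that touch the results. Totals ranged from 21.5 to 69.0 M counts (median 61.0 M). At this depth 3 counts, taken as the floor of detection, were worth at most 0.140 CPM (counts scaled to a library total of 1000000), a limit that covers counting error only. Genes that pattern the palate, Osr2, Shox2, Meox2, Barx1, Msx1, Pax9 and Prrx1, were above 0 in all 15 libraries. The summed level of 16 skeletal muscle markers was 379 to 1717 CPM at E13.5 and E14.5, 2734 to 7576 CPM at E15.5 and 9459 to 58222 CPM at E16.5 and P0. E16.5 library 1 and P0 libraries 1 and 2 held the most brown fat transcripts and are called the libraries with brown fat transcripts below. Ucp1, the uncoupling protein of brown fat, was at 199.7, 243 and 1396 CPM there and at most 2.57 CPM in the other 12 libraries, and 7 brown fat genes summed to 862 to 4128 CPM against at most 79.5 CPM. Those 3 libraries also had the highest muscle sums (44095 to 58222 CPM). The remaining libraries of E16.5 and P0 were not free of brown fat transcripts. Their brown fat sums were 59.8 to 79.5 CPM, against 3.83 to 4.93 CPM at E13.5. E14.5 libraries 1 and 3 held choroid plexus transcripts (9 genes, 1449 and 796 CPM, against 31.6 to 519 CPM elsewhere). Y-chromosome genes summed to 3.45 to 6.01 CPM in all 3 libraries of E16.5 and to 4.98 to 211 CPM from E13.5 to E15.5. At P0 the sums were 80.3, 3.57 and 161 CPM. The sex of the pooled embryos and the stage thus cannot be told apart at E16.5. P0 library 2 and E15.5 library 1 (4.98 CPM) were also low. Of the other lists, 10 osteoblast genes had mean sums of 1529 CPM at E13.5, 15691 CPM at E15.5 and 24460 CPM at P0. At the same stages the means were 459, 1595 and 4098 CPM for 10 oral epithelium genes. For 7 genes of multiciliated cells they were 276, 797 and 945 CPM. The 9 erythroid genes ranged from 856 to 5338 CPM with their highest value at E13.5.

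Nuclear-encoded OXPHOS genes stayed near their E13.5 level until E15.5 and were higher in every library of E16.5 and P0. Together they took 0.788%, 0.836% and 0.915% of all counts in the E13.5 libraries, 0.836%, 0.861% and 0.900% at E14.5 and 0.957%, 0.913% and 0.960% at E15.5. At E16.5 the share was 2.40%, 1.29% and 1.22%, and at P0 1.78%, 2.43% and 1.23%. The 6 late libraries thus lie above all 9 earlier ones, and among the 6 the libraries with brown fat transcripts are the 3 highest. The 13 mitochondrial-encoded genes took 1.52% to 1.74% of counts in the 9 earlier libraries, 1.67%, 1.67% and 1.53% at E16.5 and 1.46%, 2.77% and 1.89% at P0. Only P0 libraries 2 and 3 lie above the earlier range. The ratio of mitochondrial-encoded to nuclear-encoded counts was therefore 1.75 to 1.93 up to E15.5. It was 0.695, 1.297 and 1.25 at E16.5 and 0.818, 1.14 and 1.53 at P0. Several of the 13 genes could not be counted well, as described below, so this is a ratio of counted fragments only. In these bulk samples, a change in the share of a cell type and a change of RNA per cell cannot be told apart.

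**Figure D1:**
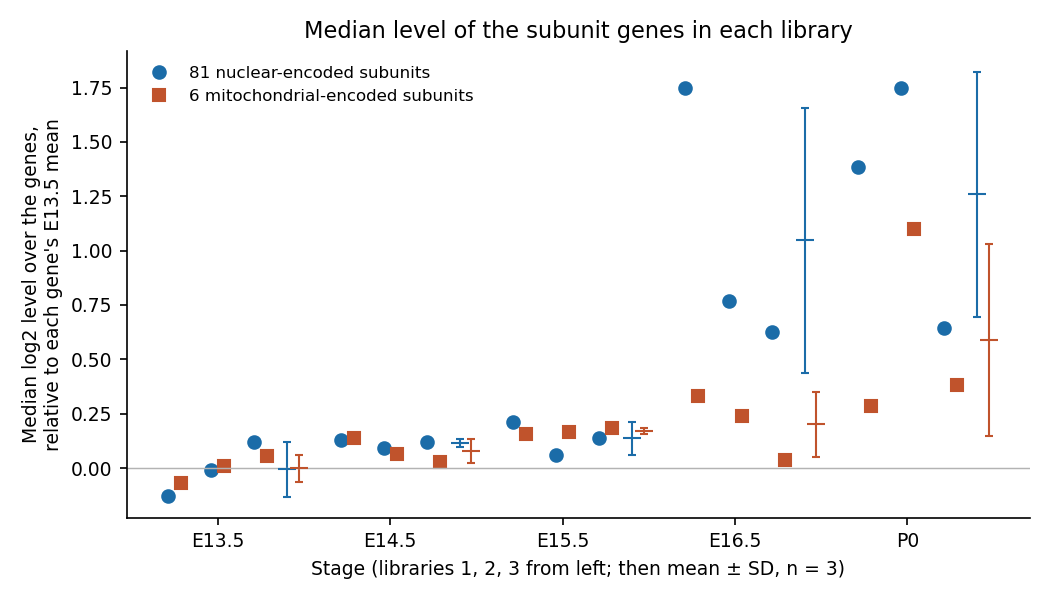
Median log2 level of the 81 tested nuclear-encoded subunits (circles) and of 6 mitochondrial-encoded subunits (squares: mt-Nd1, mt-Nd2, mt-Nd4, mt-Nd5, mt-Co1 and mt-Cytb) in each library, relative to each gene's E13.5 mean, with the mean ± SD of the 3 libraries of each stage to the right. The nuclear-encoded median is between -0.13 and 0.21 up to E15.5 and between 0.63 and 1.75 at E16.5 and P0, while the mitochondrial-encoded median is at most 0.38 in every library except P0 library 2, where it is 1.10.

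Of the 84 nuclear-encoded members, 81 passed the filter on low counts and were tested, as were all 13 mitochondrial-encoded members. Cox7b2 and Cox8c, isoforms known from testis, and a second identifier of Atp5o did not pass. Cox7b2 was at 0.0843 CPM or less in every library, and Cox8c at 0.0337 CPM or less, with 0 counts in 13 of 15. Over 81 genes, 69 had all 6 libraries of E16.5 and P0 above all 9 earlier libraries (85.2%, against 8.39% of the 22151 genes tested). The highest library was E16.5 library 1 for 39 members and P0 library 2 for 39, and 78 of 81 were higher in each of the 3 libraries with brown fat transcripts than in each of the other 3 of these stages (96.3%, against 12.8% of genes tested). P0 library 3 was above all 9 earlier libraries for 71 members (87.7%, against 28.4%), and E16.5 libraries 2 and 3 for 76 (93.8%, against 13.4%). These libraries had low but not absent brown fat transcripts, with sums of 59.8 to 79.5 CPM. The part of brown fat and muscle in the level of the members was not tested.

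**Figure D2:**
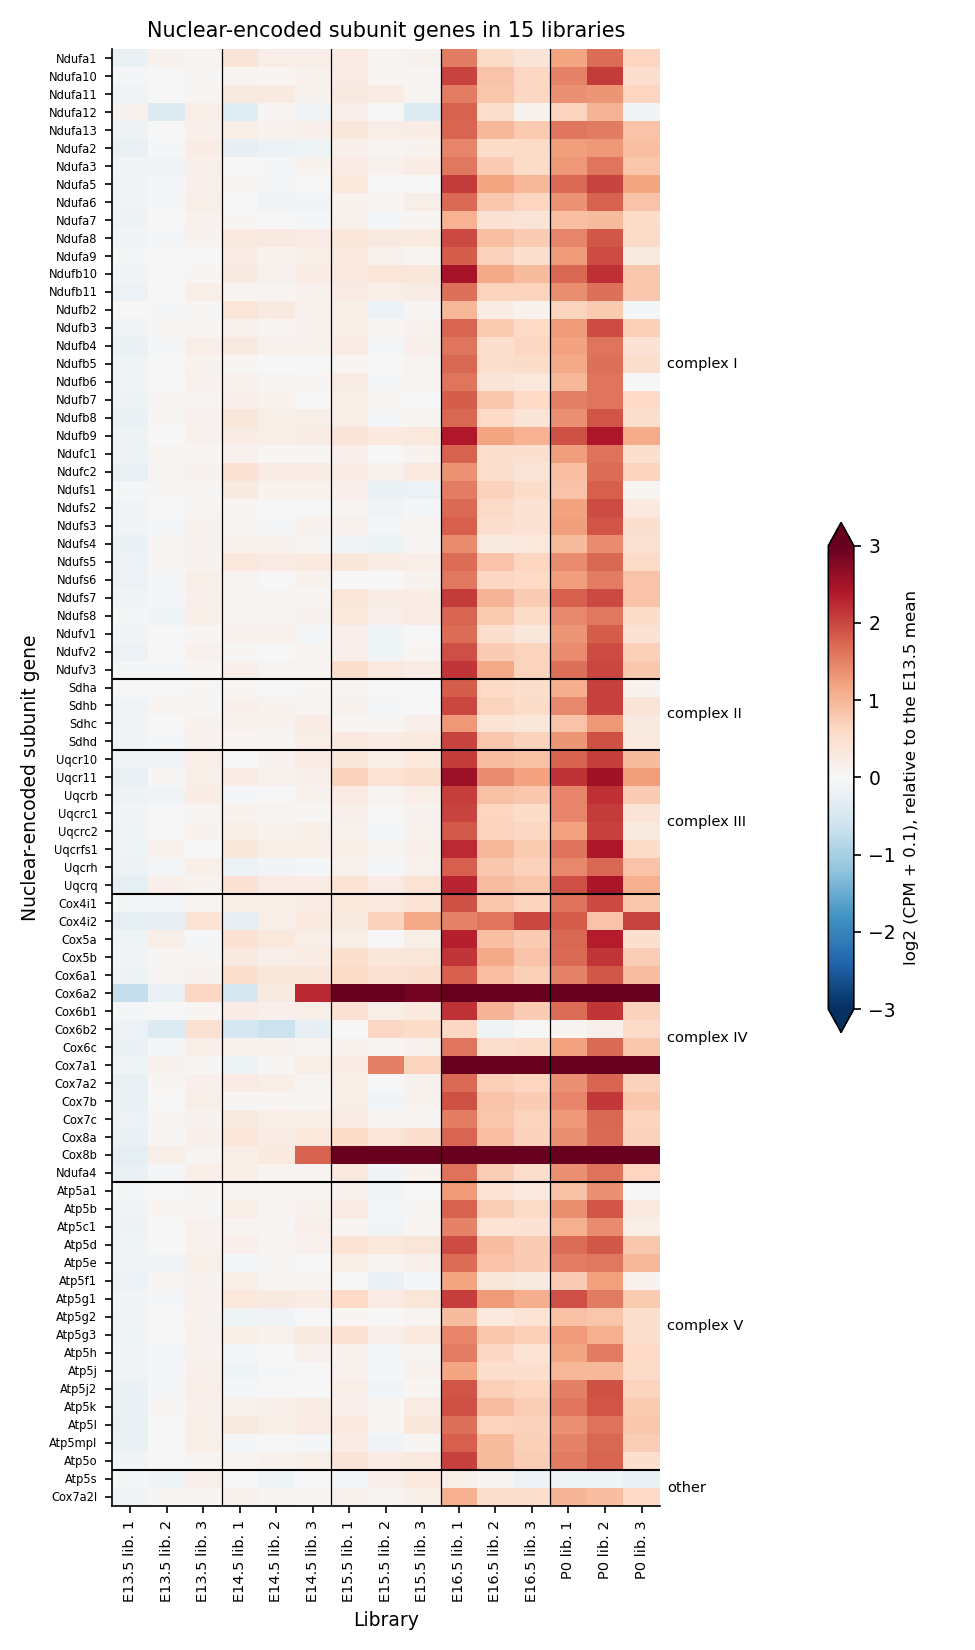
Level of each of the 81 tested nuclear-encoded members (rows, by complex) in the 15 libraries (columns, by stage), as log2 of CPM plus 0.1 relative to the gene's E13.5 mean, with colours limited at 3 in both directions. The columns of E16.5 library 1 and P0 libraries 1 and 2 are darkest, and Cox6a2, Cox7a1 and Cox8b pass the colour limit at E16.5 and P0.

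Between E13.5 and E14.5 no nuclear-encoded member passed edgeR's quasi-likelihood test (adjusted p under 0.05 by Benjamini-Hochberg over all 22151 genes, a rule that called 0.00903% of genes higher and 0.00% lower). None had an unadjusted p under 0.05 (10.3% of all genes did, with a rise), and DESeq2 called 0. The fit gives each gene 1 spread over all 15 libraries, and the members varied most at the late stages. The SD of their library medians was 0.13 at E13.5 and 0.018 at E14.5, against 0.61 at E16.5 and 0.56 at P0. Comparisons of the earlier stages thus carry the late spread, and a lack of calls there does not show stable levels. The median log2 fold change was 0.11, against 0.02 over all genes tested, and 30 of 81 members had all 3 libraries of E14.5 above those of E13.5 (15.5% of all genes did). Between E14.5 and E15.5, 3 members rose (of all genes 12.7% rose): Cox8b, Cox6a2 and Cox6b2, all of complex IV. The first 2 are heart and muscle isoforms and Cox6b2 is an isoform known from testis. The members' median was 0.05, against 0.03 over all genes. Cox8b was at 0.218, 0.242 and 0.843 CPM at E14.5 and 5.58, 3.59 and 2.85 CPM at E15.5, a log2 fold change of 3.18 (SE 0.93, adjusted p = 0.026). Cox6a2 went from 0.888, 1.56 and 6.53 CPM to 25.7, 16.5 and 10.2 CPM, a log2 fold change of 2.54 (SE 0.77, adjusted p = 0.030). Cox6b2 had 6.39, 5.86 and 7.71 CPM and then 9.17, 14.2 and 13.5 CPM, a log2 fold change of 0.89 (SE 0.28, adjusted p = 0.035). Without E14.5 library 3 the log2 fold changes of Cox8b and Cox6a2 were 4.10 and 3.82. For each of the 3 genes every E15.5 library is above every E14.5 library (24.0% of all genes). E14.5 library 3 had the highest level of all 3 genes in its stage and also the highest muscle sum of it, 1717 CPM. The count fell to 0 without E14.5 library 1, E14.5 library 2 or E15.5 library 2 and to 1 without E15.5 library 1, and it was 0 without both libraries with choroid plexus transcripts.

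The step from E15.5 to E16.5 carried most of the difference in the nuclear-encoded set, although few members passed the threshold. Their median log2 fold change was 1.00, against 0.00 over all genes tested, and 77 of 81 had every E16.5 library above every E15.5 library (15.7% of all genes did). An unadjusted p under 0.05 with a rise was found for 78 of 81 members (12.2% of all genes). After adjustment 2 rose by edgeR (1.03% of all genes), and 55 by DESeq2 (6.69% of all genes). Ndufa5, an accessory subunit of the matrix arm of complex I (chromosome 6, 24518666 to 24528013, GRCm38), was at 37.3, 29.9 and 29.9 CPM at E15.5 and 128, 67.8 and 59.5 CPM at E16.5, a log2 fold change of 1.40 (SE 0.27, adjusted p = 0.033). Atp5e, the epsilon subunit in the central stalk of ATP synthase (chromosome 2, 174461072 to 174464105), was at 115, 107 and 111 CPM and then 319, 180.2 and 171 CPM, a log2 fold change of 1.01 (SE 0.22, adjusted p = 0.048). In both genes the lowest E16.5 library exceeds the highest E15.5 library by more than the whole E15.5 range. The count of 2 fell to 0 when E16.5 library 1 or 2, or any 1 library of E15.5, was left out, and was 22 without E16.5 library 3. Without the 3 libraries with brown fat transcripts 45 of 81 rose, against 1.37% of 24003 genes then tested, while the median log2 fold change was smaller, 0.54. Without E16.5 library 1 alone the median was 0.51.

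From E16.5 to P0 no nuclear-encoded member passed (of all genes 0.190% rose and 0.163% fell). None had an unadjusted p under 0.05 (5.64% of all genes did, with a rise), DESeq2 called 0, and the median was 0.19 against 0.00 over all genes. The sign of this median was not stable: it was -0.10 without P0 library 2, -0.022 without E16.5 library 3 and -0.15 without the 3 libraries with brown fat transcripts, and 0.026 without E16.5 library 2, 0.65 without E16.5 library 1 and 0.44 without P0 library 3. The libraries of the 2 stages overlapped for all 81 members (6.23% of all genes were higher in every P0 library and 5.39% lower).

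Over the whole interval, P0 against E13.5, 77 of 81 nuclear-encoded members rose and 0 fell (29.8% of all genes rose and 26.8% fell). The median log2 fold change was 1.33, a 2.51-fold difference, against 0.03 over all genes tested, and for 74 members every P0 library lay above every E13.5 library (30.2% of all genes). By DESeq2 77 rose as well (31.9% of all genes). The F test over all 5 stages called 77 of 81 (59.1% of all genes). By complex, 33 of 35 tested members of complex I rose (median 1.302), 4 of 4 of complex II (1.31), 8 of 8 of complex III (1.63), 15 of 16 of complex IV (1.56) and 16 of 16 of complex V (1.32). Without the 3 libraries with brown fat transcripts, when P0 library 3 stands alone for its stage and is assumed to vary like the others, 61 of 81 rose and 0 fell, against 20.6% of all genes. The median log2 fold change was then 0.55, against -0.082 over all genes. By complex the medians became 0.48 (27 of 35 rose), 0.19 (0 of 4), 0.73 (7 of 8), 0.68 (14 of 16) and 0.50 (12 of 16).

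**Figure D3:**
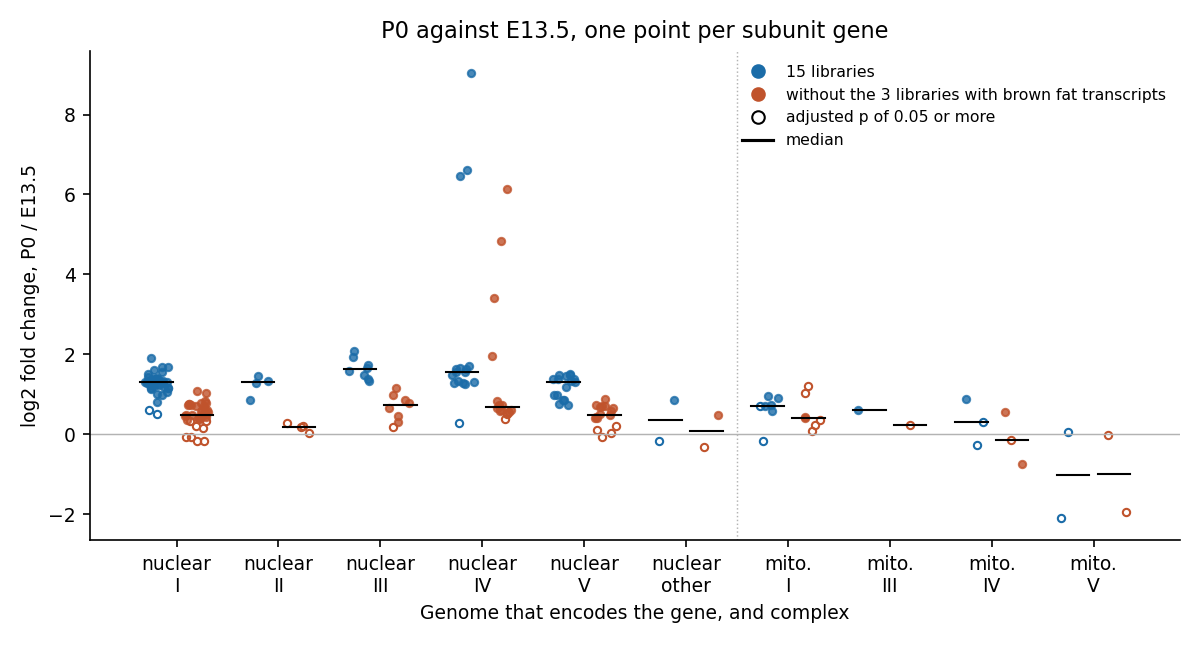
Log2 fold change of P0 against E13.5 for each tested member by encoding genome and complex, from all 15 libraries (blue) and without the 3 libraries with brown fat transcripts (orange), with filled points at an adjusted p under 0.05 and bars at the median. The nuclear-encoded medians lie between 1.302 and 1.63 for complexes I to V with all libraries and between 0.19 and 0.73 without the 3, and Cox8b, Cox7a1 and Cox6a2 stand above the rest of complex IV in both.

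In complex I, Ndufa2, an accessory subunit of the NADH-oxidizing arm, had the highest level per length over all libraries, 151 CPM per kilobase. It was at 52.3, 59.1 and 71.2 CPM at E13.5 and 146.5, 150 and 115 CPM at P0, and rose by a log2 fold change of 1.17 (SE 0.22, adjusted p = 0.00063). All 3 P0 libraries lie above the E13.5 ones, and P0 library 3 is the lowest of them. Ndufb9, an accessory subunit of the membrane arm, had the largest log2 fold change of the complex, 1.91 (SE 0.35, adjusted p = 0.00058), and 1.03 without the 3 libraries. Ndufb2, another membrane arm subunit, and Ndufa12, which takes part in building the NADH-oxidizing arm, were the members of this complex that did not pass (log2 fold changes 0.51 and 0.61, adjusted p = 0.087 and 0.19). Their values turned to -0.15 and -0.18 without the 3 libraries, and Ndufb2 passed without P0 library 3 (0.76, adjusted p = 0.013).

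Complex II had the lowest median of the 5 complexes without the libraries with brown fat transcripts, 0.19. Sdhd, a membrane anchor and the member with the highest level per length (134 CPM per kilobase), was at 94.1, 94.7 and 109 CPM at E13.5, 403, 174 and 162 CPM at E16.5 and 248.6, 375 and 122 CPM at P0. Its log2 fold change from E13.5 to P0 was 1.33 (SE 0.37, adjusted p = 0.0089), and 0.21 without the 3 libraries (adjusted p = 0.18). Sdha, the flavoprotein with the active site, was at 209, 211 and 216 CPM at E13.5 and 454, 875 and 229.6 CPM at P0. P0 library 3 is thus close to the E13.5 libraries, and the log2 fold change of Sdha was 1.29 (adjusted p = 0.016) with all libraries and 0.02 (adjusted p = 0.87) without the 3. Sdhb, the iron-sulphur subunit, and Sdhc, the other anchor, had 1.45 and 0.87 with all libraries and 0.30 and 0.17 without them (adjusted p = 0.058 and 0.19). The calls of Sdha and Sdhc were also lost without P0 library 2 alone (0.71 and 0.61, adjusted p = 0.11 and 0.062). The difference between complex II and the other complexes was not tested.

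Complex III had the highest median of the 5 complexes, and all 8 members rose between E13.5 and P0. Uqcr10, a small accessory subunit with the highest level per length in the complex (208 CPM per kilobase), was at 61.3, 61.6 and 75.8 CPM at E13.5 and 225, 279 and 128 CPM at P0 (log2 fold change 1.67, SE 0.32, adjusted p = 0.00084). Uqcr11, another small accessory subunit, had the largest change of the complex, from 39.8, 47.0 and 51.9 CPM to 207, 268 and 111 CPM. Its log2 fold change was 2.08 (SE 0.35, adjusted p = 0.00033), and 1.17 without the 3 libraries (adjusted p = 0.00043). Uqcrfs1, the Rieske iron-sulphur protein that takes electrons from ubiquinol, went from 70.5, 83.5 and 78.6 CPM to 239, 416 and 114 CPM, and Uqcrc1, a core protein, from 174, 180.5 and 194 CPM to 508, 781 and 239.5 CPM. The lowest P0 library of each of these 4 genes is P0 library 3, and it is still above the highest E13.5 library.

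Complex IV held the members with the largest changes, the heart and muscle isoforms. Cox8b (chromosome 7, 140898945 to 140900446) was at 0.129, 0.211 and 0.193 CPM at E13.5, 133, 34.97 and 20.99 CPM at E16.5 and 84.4, 186 and 13.4 CPM at P0. Its log2 fold change from E13.5 to P0 was 9.04 (SE 1.18, adjusted p = 5.7e-05), and 6.13 without the 3 libraries. Cox6a2 (chromosome 7, 128205435 to 128206387) was at 0.731, 1.08 and 2.01 CPM at E13.5, 198, 80.7 and 58.5 CPM at E16.5 and 154, 145 and 38.7 CPM at P0, a log2 fold change of 6.47 (SE 0.92, adjusted p = 0.00011), and 4.84 without the 3. Cox7a1 (chromosome 7, 30184144 to 30186078) was at 0.774, 0.930 and 0.876 CPM at E13.5, 1.01, 2.62 and 1.43 CPM at E15.5, 137, 11.9 and 10.9 CPM at E16.5 and 64.2, 178 and 9.71 CPM at P0. Its log2 fold change was 6.61 (SE 1.22, adjusted p = 0.00064), and 3.404 without the 3 libraries (adjusted p = 0.00027). Without P0 library 2 the values of Cox8b and Cox7a1 were 8.10 and 5.44. Every P0 library of the 3 genes was above every E13.5 library. In each E15.5 library, where the muscle sum was 2734 to 7576 CPM, Cox7a1 had the lowest level of the 3 genes. How the 3 genes follow the muscle sum was not tested.

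The broadly expressed partners rose as well, by smaller factors. Cox8a, the member of complex IV with the highest level per length (371 CPM per kilobase), was at 106, 123 and 133 CPM at E13.5 and 315, 393 and 196 CPM at P0 (log2 fold change 1.32, SE 0.27, adjusted p = 0.0013). Cox6a1 and Cox7a2 had log2 fold changes of 1.47 and 1.33 (adjusted p = 0.00055 and 0.0016). In levels per length, Cox6a2 made up 0.806%, 1.06% and 1.83% of the Cox6a pair at E13.5, 14.73%, 10.7% and 6.77% at E15.5, 36.5%, 30.3% and 26.4% at E16.5 and 35.5%, 28.5% and 16.99% at P0. Cox8b made up 0.184% to 0.259% of the Cox8 set at E13.5, 33.3%, 18.97% and 14.1% at E16.5 and 28.9%, 41.8% and 9.37% at P0. For Cox7a1 the share of the Cox7a pair was 1.46% to 1.65% at E13.5, 1.62%, 4.72% and 2.42% at E15.5, 44.2%, 11.9% and 11.4% at E16.5 and 31.6%, 49.7% and 10.1% at P0. The shares of Cox7a1 and Cox8b separated the 3 libraries with brown fat transcripts from the other 3 late libraries, whereas that of Cox6a2 did not: P0 library 2 (28.5%) was below E16.5 library 2 (30.3%). Cox8b and Cox7a1 are known from brown fat as well as from muscle, and Cox8b is on the brown fat marker list, whose sums here leave it out. The libraries with brown fat transcripts also hold the most muscle transcripts, and the part of either tissue in these shares was not tested.

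**Figure D4:**
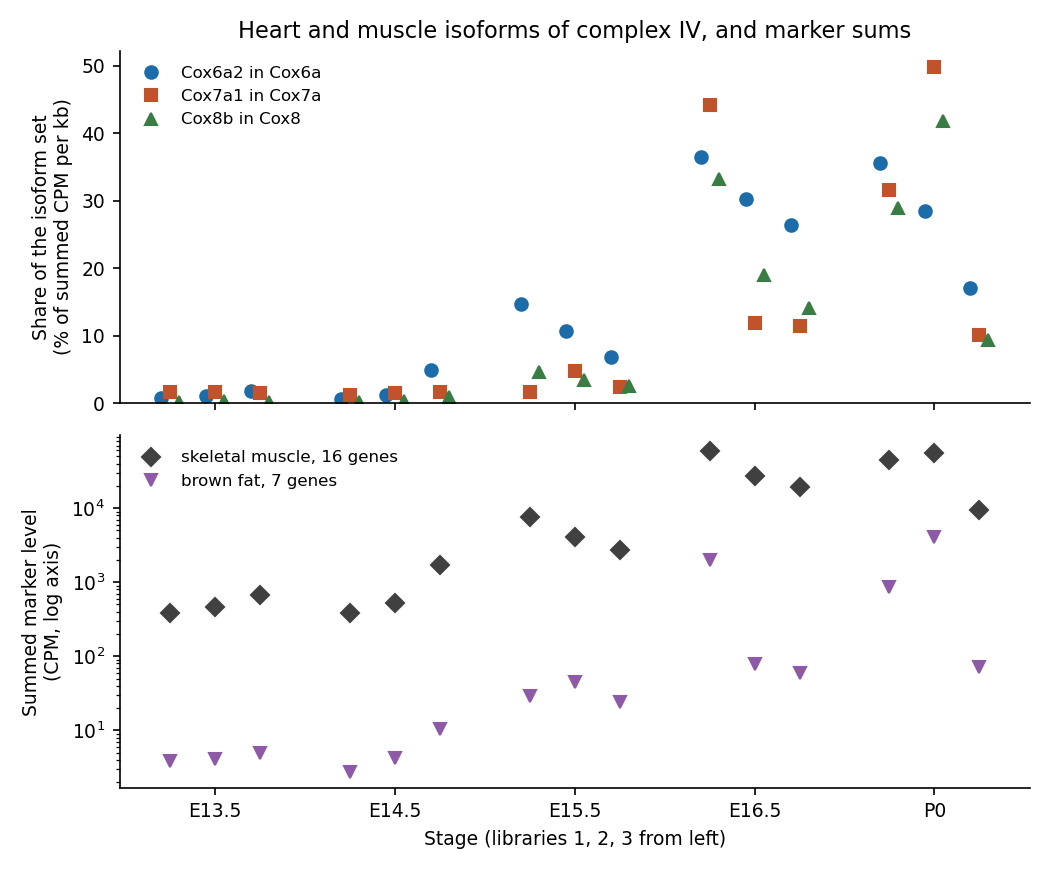
Top: share of Cox6a2, Cox7a1 and Cox8b in their isoform sets (percent of summed CPM per kilobase) in each library. Bottom: summed CPM of 16 skeletal muscle and 7 brown fat marker genes on a log axis. Cox6a2 already has 6.77% to 14.73% of its pair at E15.5, where Cox7a1 and Cox8b are below 5%, and the 3 libraries with the highest brown fat sums have the highest shares of Cox7a1 and Cox8b.

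Other complex IV isoforms took another course. Cox4i2, the isoform of Cox4i1 known from lung and from oxygen-sensing cells, was at 2.82, 2.84 and 4.56 CPM at E13.5, 9.71, 10.6 and 13.97 CPM at E16.5 and 12.2, 6.22 and 14.1 CPM at P0, and rose by a log2 fold change of 1.67 (SE 0.34, adjusted p = 0.0012). Its lowest late library was P0 library 2 and its highest P0 library 3, whereas P0 library 2 was the highest of all for 39 members, and its log2 fold change was 1.96 without the 3 libraries. Cox4i1, the common form, rose by a log2 fold change of 1.56 (adjusted p = 0.0011). Cox6b2 was at 8.14, 6.86 and 12.6 CPM at E13.5 and 9.54, 10.2 and 13.9 CPM at P0, did not pass (log2 fold change 0.28, adjusted p = 0.40), and had its highest library at E15.5. Cox6b1, its common partner, rose by a log2 fold change of 1.62 (adjusted p = 0.0022), and X-linked Cox7b by 1.56 (adjusted p = 0.0014).

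In complex V, Atp5a1 and Atp5b, the alpha and beta subunits of the catalytic head, had levels per length of 361.5 and 342 CPM per kilobase over all libraries, the former the highest of the complex. Atp5a1 was at 836, 856.5 and 907 CPM at E13.5 and 1594, 2251 and 876 CPM at P0. P0 library 3 thus lies within the E13.5 range, and the log2 fold change of 0.86 (SE 0.30, adjusted p = 0.026) was -0.074 (adjusted p = 0.68) without the 3 libraries. The call of Atp5a1 was also lost without P0 library 2 (log2 fold change 0.53, adjusted p = 0.13) or any 1 library of E13.5 (adjusted p = 0.053 to 0.074). Atp5b had 1.33 (adjusted p = 0.0067), and 0.21 (adjusted p = 0.28) without the 3 libraries. The 3 genes for subunit c, the proton-carrying ring, code for the same mature protein. Atp5g3 held 57.7% to 62.9% of their summed level per length in every library. Atp5g1 held 8.94% to 9.36% at E13.5, 12.2% to 14.5% at E16.5 and 10.9% to 14.72% at P0, and its log2 fold change of 1.50 (SE 0.28) was the largest of the 3, against 0.74 for Atp5g2 and 0.99 for Atp5g3. The differences between the 3 genes were not tested. Outside the complexes proper, Cox7a2l, which helps join complexes III and IV, rose by a log2 fold change of 0.86 (SE 0.16, adjusted p = 0.00060). Atp5s, an ATP synthase coupling factor in name, did not pass (-0.16, adjusted p = 0.37).

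The mitochondrial-encoded subunits had a median log2 fold change of 0.60 from E13.5 to P0, against 1.33 for the nuclear-encoded ones. In none of the 4 comparisons of neighbouring stages did any of the 13 pass edgeR's test, and DESeq2 called 0. An unadjusted p under 0.05 was found for 1 member from E14.5 to E15.5 (19.7% of all genes) and for 4 from E16.5 to P0 (5.64%), all with a rise. From E13.5 to E14.5 the median log2 fold change was 0.15 for the mitochondrial-encoded and 0.11 for the nuclear-encoded members, and from E14.5 to E15.5 it was 0.058 and 0.046. From E15.5 to E16.5 the medians were -0.13 and 1.00, and from E16.5 to P0 0.46 and 0.19. Over mt-Nd1, mt-Nd2, mt-Nd4, mt-Nd5, mt-Co1 and mt-Cytb, the 6 genes that could be counted well, the medians were 0.13 from E15.5 to E16.5 (-0.13 to 0.24) and 0.38 from E16.5 to P0 (0.27 to 0.68). From E13.5 to P0, 7 of 13 rose and 0 fell (29.8% of all genes rose): mt-Nd1, mt-Nd2, mt-Nd3, mt-Nd4 and mt-Nd5 of complex I, mt-Cytb of complex III and mt-Co2 of complex IV, with log2 fold changes of 0.58 to 0.97. The F test over all stages called 4 of 13 (30.8%, against 59.1% of all genes). The difference between the genomes was not tested.

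How well these genes can be counted differed between them. The mitochondrial genome has copies in the nuclear genome, and multi-mapping fragments were not counted. For mt-Co2, mt-Co3, mt-Atp6, mt-Nd3 and mt-Nd4l, 98.0% to 100% of all 50-base stretches also stand in an annotated nuclear gene, chiefly the pseudogenes Gm28661, Gm28437, Gm10925, Gm28438 and Gm10222, which lie next to each other on chromosome 1 between 24612407 and 24615565 (GRCm38). These 5 genes had medians of 0.172 to 1.44 counts per base, against 47.8 to 251 for mt-Nd1, mt-Nd2, mt-Nd4, mt-Nd5, mt-Co1 and mt-Cytb, which held 99.6% to 99.8% of all counts on the 13 genes. mt-Atp8 and mt-Nd6, with 0% of stretches in an annotated nuclear gene, had 0.191 and 1.63 counts per base. Only annotated transcripts were searched, so these percentages do not cover copies that lie outside annotated genes. mt-Nd6 is the only member on the other strand of the mitochondrial genome. Values of mt-Co2, mt-Co3, mt-Atp6, mt-Atp8, mt-Nd3, mt-Nd4l and mt-Nd6 are therefore given as uncertain.

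**Figure D5:**
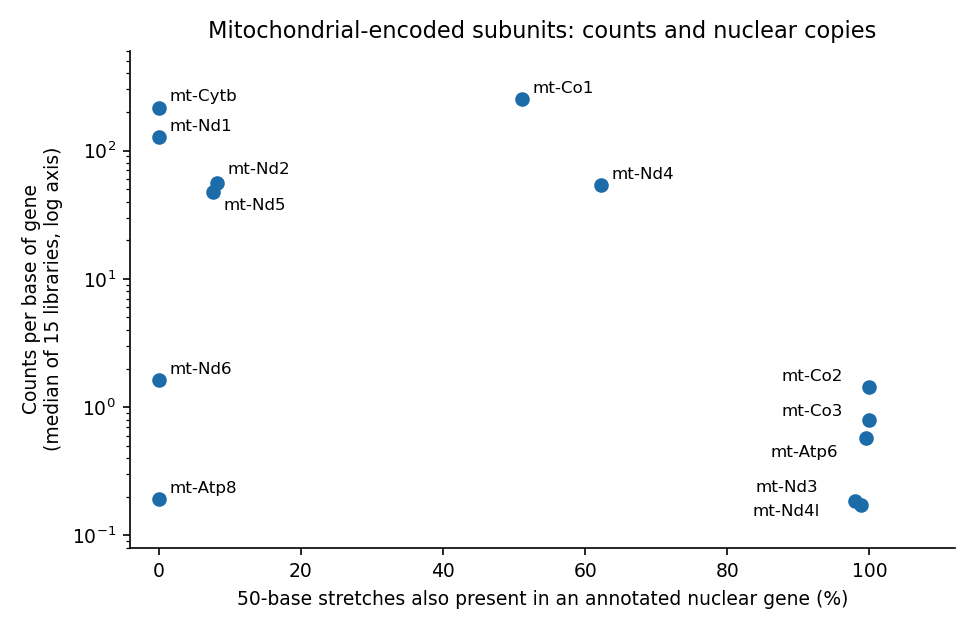
Counts per base of each mitochondrial-encoded subunit gene (median of 15 libraries, log axis) against the percent of its 50-base stretches that also occur in an annotated nuclear gene. The 5 genes at 98.0% or more all lie at or below 1.44 counts per base, while mt-Co1 at 51.1% and mt-Nd4 at 62.2% lie at 251 and 54.0.

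Among the 6 well-counted genes, mt-Nd5, a proton-pumping subunit, was at 1224, 1327 and 1413 CPM at E13.5, 1881, 1945 and 1617 CPM at E16.5 and 1984, 3596 and 1898 CPM at P0. Its log2 fold change from E13.5 to P0 was 0.92 (SE 0.20, adjusted p = 0.0023), and every P0 library was above every E13.5 library. mt-Nd1, the subunit that lines the ubiquinone site, was at 1734, 1930 and 1809 CPM and then 2270.0, 4356 and 2487 CPM (log2 fold change 0.74, SE 0.21, adjusted p = 0.0089). mt-Nd4, another pumping subunit, went from 1004, 1048 and 1092 CPM to 1486, 2181 and 1480 CPM (0.71, SE 0.16, adjusted p = 0.0027). mt-Cytb and mt-Nd2 had 0.60 and 0.58 (adjusted p = 0.022 and 0.032). mt-Co1, the catalytic subunit of cytochrome oxidase and the member with the most counts per base, was at 6048, 6469 and 6684 CPM at E13.5 and 5688, 11843 and 6210 CPM at P0, so that P0 library 1 lay below the E13.5 range and P0 library 3 within it. It did not pass (0.31, adjusted p = 0.26), and its value was -0.084 without P0 library 2. P0 library 2 held the highest level of 7 of the 13 genes. Without it, or without E13.5 library 1, the number that rose from E13.5 to P0 was 4. The calls lost were those of mt-Nd2, mt-Nd3 and mt-Cytb, whose adjusted p reached 0.14, 0.089 and 0.094 when 1 library was left out. Without the 3 libraries with brown fat transcripts, mt-Nd5, mt-Nd4 and mt-Co2 rose and mt-Co3 fell (-0.75, adjusted p = 0.022), with a median of 0.23.

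Of the uncertain genes, mt-Co2 was at 13.3, 13.9 and 13.4 CPM at E13.5 and 22.2, 31.0 and 21.3 CPM at P0 (log2 fold change 0.88, SE 0.22, adjusted p = 0.0050), and mt-Nd3 at 0.932 to 1.34 CPM and 1.64 to 2.35 CPM (0.97, SE 0.34, adjusted p = 0.026). mt-Atp8 had 10.7 CPM in E13.5 library 2 and at most 3.56 CPM elsewhere, and its log2 fold change of -2.09 (adjusted p = 0.13) became 0.85 without that library. mt-Co3, mt-Atp6, mt-Nd4l and mt-Nd6 did not pass, with log2 fold changes of -0.26, 0.07, -0.16 and 0.71.

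Other genes of energy metabolism and of mitochondria were counted from lists. From E13.5 to P0, 15 of 18 genes of the tricarboxylic acid cycle, which feeds electrons to complexes I and II, rose and 0 fell (median 1.33). So did 13 of 16 of fatty acid oxidation (1.87), 12 of 16 of carriers and uncoupling (1.05) and 10 of 19 of glycolysis (0.81). These shares, 83.3%, 81.2%, 75% and 52.6%, stand against 29.8% of all genes that rose, and the medians against 1.33 for the nuclear-encoded members and 0.03 over all genes. Of 77 tested genes with an Mrpl or Mrps symbol, 41 rose and 1 fell (53.2% and 1.3%, median 0.47). They were taken by name alone for the mitochondrial ribosome, which translates the mitochondrial-encoded subunits. Of 45 assembly factors of the complexes 13 rose, a share of 28.9% that is close to the 29.8% of all genes, and 5 fell (11.1%, against 26.8% of all genes), with a median of 0.33. Without the 3 libraries with brown fat transcripts the medians were 0.22 for the tricarboxylic acid cycle (4 rose), 0.26 for fatty acid oxidation (5 rose), 0.39 for carriers (7 rose), 0.19 for glycolysis (4 rose, 4 fell), 0.05 for the ribosome (13 rose, 5 fell) and -0.25 for assembly factors (8 rose, 16 fell). Of all genes 20.6% rose and 20.9% fell in this fit, with a median of -0.082. The shares that rose in the tricarboxylic acid cycle (22.2%), glycolysis (21.1%), the ribosome (16.9%) and the assembly factors (17.8%) are near that background. Each of the medians is below the 0.55 of the nuclear-encoded members. The differences between the lists were not tested.

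Within the lists the largest log2 fold changes from E13.5 to P0 were those of Ucp1, from brown fat, and of 4 genes known from muscle. Ucp1 had 12.31 (SE 2.83, adjusted p = 0.0027), and 4.49 (adjusted p = 0.014) without the 3 libraries with brown fat transcripts. Ckmt2, the mitochondrial creatine kinase of striated muscle, went from 0.0287, 0.197 and 0.0743 CPM at E13.5 to 129, 192 and 47.0 CPM at P0 (log2 fold change 10.22, SE 1.01, adjusted p = 1e-05, and 11.16 without E13.5 library 2). Ucp3, an uncoupling protein homologue known from muscle and brown fat, had 6.46 (SE 0.84, adjusted p = 5.6e-05). It was at 0.0143, 0.0563 and 0.1188 CPM at E13.5 and 3.883, 11.495 and 1.698 CPM at P0. The floor of 3 counts was worth 0.0439 to 0.0471 CPM in the E13.5 libraries. Ucp1, at 0.0446 to 0.183 CPM there, Ckmt2 and Ucp3 thus started near or below this floor. The sizes of their log2 fold changes are therefore uncertain. The muscle forms of phosphoglycerate mutase and enolase, Pgam2 and Eno3, had 6.03 and 5.78 (adjusted p = 9.7e-05 and 3.3e-05). Idh3a of the tricarboxylic acid cycle had 2.31 (adjusted p = 0.0048), and Acadl and Acaa2 of fatty acid oxidation 3.52 and 3.14 (adjusted p = 0.0014 and 0.0022). Idh3a was at 50.02, 58.6 and 54.6 CPM at E13.5 and 206, 532.1 and 70.6 CPM at P0, so that P0 library 3 is the lowest of its stage and still above the E13.5 libraries. Without P0 library 2 the values of Idh3a, Acadl and Acaa2 were 1.36, 2.43 and 2.22 (adjusted p = 0.029, 0.0059 and 0.010), and without the 3 libraries 0.29, 1.1202 and 1.36 (adjusted p = 0.15, 0.0085 and 0.0012). Among genes with an Mrpl or Mrps symbol, Mrps28 rose by 1.57 and Mrps36 by 1.53. Among assembly factors Sco2, a copper chaperone for complex IV, rose by 1.51 and Pet100 by 1.07. Without the 3 libraries Mrps28 had 1.17, Mrps36 0.475, Sco2 1.42 and Pet100 1.13.

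The genes listed as regulators of mitochondrial biogenesis, among them Polg, Twnk and Polrmt, did not all move in the same direction. Of 24 tested, 5 rose and 9 fell from E13.5 to P0 (20.8% and 37.5%, against 29.8% and 26.8% of all genes), with a median of -0.35. Without the 3 libraries with brown fat transcripts their median was -0.49, against -0.082 over all genes. Ppargc1a, the coactivator that drives mitochondrial biogenesis, was at 8.37, 9.11 and 5.96 CPM at E13.5, 18.8, 20.8 and 14.4 CPM at E16.5 and 21.5, 173 and 10.3 CPM at P0 (log2 fold change 3.13, SE 0.80, adjusted p = 0.0052). P0 library 2 stands far above all others, and the log2 fold change was 1.04 (adjusted p = 0.034) without it and 0.31 (adjusted p = 0.61) without all 3 libraries with brown fat transcripts. Its relative Ppargc1b had 1.86 (adjusted p = 0.0055), 1.09 (adjusted p = 0.032) without P0 library 2 and 0.32 (adjusted p = 0.52) without the 3. Esrra, the ERR form partnered by these coactivators, rose from 17.9, 23.6 and 17.9 CPM to 47.8, 60.1 and 33.4 CPM (1.25, SE 0.29, adjusted p = 0.0028), and 0.66 remained without the 3 libraries (adjusted p = 0.021). Ppara, a receptor that regulates fatty acid oxidation, was at 1.003, 0.859 and 1.19 CPM at E13.5 and 9.597, 32.9 and 3.79 CPM at P0 and rose by a log2 fold change of 3.92 (adjusted p = 0.00053). The value was 2.74 (adjusted p = 0.0013) without P0 library 2 and 1.81 (adjusted p = 0.0016) without the 3 libraries.

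Nrf1 and Tfam, by contrast, fell, and Gabpa did not pass. Nrf1 was at 62.7, 68.5 and 68.1 CPM at E13.5 and 39.3, 34.6 and 46.7 CPM at P0 and fell by 0.73 on the log2 scale (SE 0.12, adjusted p = 0.00029). Tfam, which packages and transcribes mitochondrial DNA, fell by 0.39 (SE 0.11, adjusted p = 0.0075; 0.051 without P0 library 1), and Pprc1, a relative of Ppargc1a, by 0.98 (SE 0.11, adjusted p = 2.7e-05). Gabpa was at 70.6, 68.4 and 72.0 CPM at E13.5 and 36.3, 76.8 and 46.2 CPM at P0 (-0.41, adjusted p = 0.11). Its P0 library 2 is the highest of all 15. Without it Gabpa fell by 0.75 on the log2 scale (adjusted p = 0.0012), and without the 3 libraries by 0.70 (adjusted p = 0.0052). Messenger RNA levels of a factor do not measure its activity. Esrrg and Esrrb, the other ERR forms, had their highest stage means at E14.5 (44.1 to 83.1 CPM and 11.6 to 16.9 CPM in its libraries), although E16.5 library 1 was above 2 of the 3 E14.5 libraries for Esrrb, and fell to E15.5 by 3.45 and 1.75 on the log2 scale (adjusted p = 0.00097 and 0.045). The call of Esrrb was lost without any 1 of the 3 E14.5 libraries or E15.5 library 1 or 3 (adjusted p = 0.073 to 0.15), and without both libraries with choroid plexus transcripts (-1.39, adjusted p = 0.37).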

How the data were processed

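The authors' deposited table holds raw counts of fragments per gene for 15 libraries. Per the file headers the authors counted with featureCounts (Subread 2.0.1), in pairs, on the reverse strand of GENCODE M18, from files named as duplicate-marked, and no option recorded there adds multi-mapping fragments or those in overlapping genes. Per the submitters' processing notes, cutadapt 3.4, HISAT2 2.2.1, Bowtie2 and SAMtools 1.12 were used with build mm10. Fragments of members that overlap a gene on the same strand (20 of 97) could be left uncounted. Symbols and gene types came from GENCODE M21, and 89 of 97 members have the same position there.

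Genes with enough counts (edgeR's filterByExpr by stage, minimum count 10) were fitted in edgeR 4.0.16 (R 4.3.3) with TMM factors and 1 coefficient per stage over all libraries. Comparisons used the quasi-likelihood F test with Benjamini-Hochberg adjustment over 22151 genes, at 0.05. The standard error follows from the fold change and its F. CPM are counts scaled to TMM-adjusted totals, and levels between genes are per kilobase of the deposited gene length. Log2 fold changes are P0 over E13.5 or later over earlier. Alternatives included DESeq2 1.42.0. The procedure was tested on simulated data.

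Named were all mitochondrial-encoded genes, the 3 largest rises and falls among passing members of each comparison, the isoform sets of complexes IV and V, the nuclear-encoded member of each complex with the highest level per length, the 2 largest passing changes of each pathway list, of which some are not printed, and 6 regulators. Sdha, Sdhb, Sdhc, Ndufb2, Ndufb9, Ndufa12, Uqcr11, Uqcrc1, Uqcrfs1, Atp5b, Atp5s and Cox7a2l were added after their values were seen. The members and lists were chosen with earlier results of these data known. Libraries of a stage differed far beyond counting error (chi-square per degree of freedom 32.6 to 246), so none was a duplicate.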

Additional observations from a re-analysis of the deposited data

How the results depend on the processing

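Of the 12 counts of subunits called, those of nuclear-encoded members from P0 against E13.5 and over all stages stayed within 1.5 times of the main count under every alternative, at 61 to 78 and 69 to 79. From E15.5 to E16.5 the count of 2 nuclear-encoded members became 55 with DESeq2, 5 with a mean of at least 1 CPM, 0 with only the 6 libraries of the comparison, 45 without the 3 libraries with brown fat transcripts and 0 to 22 when 1 library was left out. From E14.5 to E15.5 the count of 3 became 5 with only 6 libraries, 0 without the 2 libraries with choroid plexus transcripts and 0 to 3 when 1 library was left out. Mitochondrial-encoded members called from E14.5 to E15.5 went from 0 to 1 with upper-quartile normalization and to 1 with only 6 libraries. From E13.5 to P0 they went from 7 to 4 with only 6 libraries, to 4 without the 3 libraries (3 higher, 1 lower) and to 4 to 7 when 1 library was left out. Over all stages they went from 4 to 1 without the 3 libraries, to 2 without the 2 libraries with choroid plexus transcripts and to 2 to 6 when 1 library was left out. Log2 fold changes from E13.5 to P0 spanned both signs when 1 library was left out for mt-Atp8 (-2.64 to 0.85), mt-Nd4l (-0.31 to 0.19), mt-Co1 (-0.084 to 0.54) and mt-Atp6 (-0.14 to 0.30). Without the 3 libraries they turned to 0.097 for mt-Nd4l, -0.13 for mt-Co1, -0.025 for mt-Atp6, -0.074 for Atp5a1, -0.15 for Ndufb2 and -0.18 for Ndufa12.

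Same-numbered libraries of different stages had a mean correlation of deviations of 0.059, and 9 of 30 pairs exceeded 0.1. For differently numbered libraries of different stages the mean was -0.032, and 19 of 60 pairs exceeded 0.1. Replicate numbers were therefore not taken to pair the libraries. With the replicate block 77 nuclear-encoded and 7 mitochondrial-encoded members were called from E13.5 to P0, 2 and 0 from E15.5 to E16.5, 2 and 0 from E14.5 to E15.5, and 75 and 4 over all stages. The block left out the calls of Atp5e from E15.5 to E16.5 (adjusted p = 0.0502) and Cox6a2 from E14.5 to E15.5 (adjusted p = 0.0555). Upper-quartile normalization moved the median of all genes from E14.5 to E15.5 from 0.03 to 0.16, and that of the nuclear-encoded members from 0.05 to 0.18. The 2 alternatives that leave out several libraries were chosen after seeing the data. There were 3 pools per stage, and 7 of 13 mitochondrial-encoded genes had few counts per base.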
